A study of Mus musculus with 11 samples.

Results

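The lactose synthesis genes are 6 genes named by their place in the route from blood glucose to lactose: Lalba, B4galt1, Slc2a1, Ugp2, Galt and Slc35a2. All 6 were among the 22196 genes obtained from the deposited tables, and all 6 were among the 12716 that passed the filter on low counts. They were read in RNA from whole inguinal mammary gland of mice labelled PND16.5, which the protocol gives as 16 days post delivery, on normal chow. With 43.3% to 53.1% of reads from casein genes, PND16.5 is read here as time after giving birth, not as the mice's own age. The 6 Knockout libraries came from Tsc1-fl/fl; Adipoq-Cre-Tg/+ mice and the 5 Wild-Type libraries from Tsc1-fl/fl; Adipoq-Cre-+/+ mice. Floxed Tsc1, which the recombinase Cre can cut, was thus shared by both groups, and only the Knockout group carried the Cre transgene. The Adipoq promoter is active in adipocytes, whereas lactose is made by the secretory epithelium of the gland. The labels do not say whether each library is a separate animal, so p-values measure the spread between these libraries.

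Lactose is the main sugar of milk and draws water into it by osmosis. It is made in the Golgi of the alveolar epithelial cell, where lactose synthase joins galactose from UDP-galactose to glucose. The enzyme has a catalytic part, beta-1,4-galactosyltransferase (B4galt1), and a regulatory part, alpha-lactalbumin (Lalba), a milk protein that turns the transferase from glycoproteins to free glucose. Glucose enters the cell through GLUT1 (Slc2a1). UDP-glucose is made by UDP-glucose pyrophosphorylase (Ugp2), galactose 1-phosphate uridylyltransferase (Galt) exchanges UDP between glucose and galactose phosphates in the Leloir pathway, and the transporter encoded by Slc35a2 carries UDP-galactose into the Golgi.

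The promoters of the pair that forms lactose synthase are shown because their genes stood at such different levels in the gland. Each is the 230 bases from 250 to 21 bases before the RefSeq transcription start on GRCm38.p6, read on the gene's strand. In Lalba (chr15:98482704-98482933, minus strand) capitals mark the one ATAAAA, which resembles a TATA box and begins 43 bases before the RefSeq start. The Lalba model used for counting (chr15:98480400-98482721) starts inside this window, so that distance depends on the annotation. In B4galt1 (chr4:40854005-40854234, minus strand) capitals mark 5 copies of CCGCCC, the reverse complement of the GC-box word GGGCGG.
Lalba: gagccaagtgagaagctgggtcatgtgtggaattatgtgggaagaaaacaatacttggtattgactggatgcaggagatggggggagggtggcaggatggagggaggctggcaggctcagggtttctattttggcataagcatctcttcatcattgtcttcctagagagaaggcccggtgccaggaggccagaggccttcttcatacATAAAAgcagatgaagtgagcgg
B4galt1: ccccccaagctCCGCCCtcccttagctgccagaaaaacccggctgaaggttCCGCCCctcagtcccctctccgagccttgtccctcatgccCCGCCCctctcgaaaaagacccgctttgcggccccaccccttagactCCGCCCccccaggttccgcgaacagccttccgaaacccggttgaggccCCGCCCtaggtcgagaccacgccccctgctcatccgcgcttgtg

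The Lalba window held 2 CpG dinucleotides and a GC content of 51.3%, against a median of 5 CpG and 51.7% over 32851 RefSeq promoter windows of the same length. The B4galt1 window held 18 CpG at a GC content of 67.4%, and 82.2% of all windows held fewer CpG. Searched on both strands, ATAAAA occurred in 16.2% of all windows and GGGCGG in 29.8%. The word TTCNNNGAA, the core recognised by STAT5, the factor that relays the prolactin signal, occurred in 6.48% of all windows. It was found once in the B4galt1 window, 99 bases before the start, and not in these letters in the Lalba window. The windows of the other 4 genes held 11 to 20 CpG at a GC content of 55.2% to 72.6%. These matches describe letters in a window and are not evidence of binding.

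Depth ranged from 25817975 to 37894237 estimated reads per library. The 5 casein genes took 47.5% ± 2.80 (SD, n = 6) of the reads for Knockout against 50.0% ± 2.08 (SD, n = 5) for Wild-Type. Tsc1 itself, summed over its transcripts, had 8.31 to 11.9 CPM (read counts scaled to a common library size, here after TMM scaling) in Knockout, median 10.1, and 9.55 to 12.2 in Wild-Type, median 10.7. Its log2 fold change was -0.09 ± 0.11 (SE), with an edgeR adjusted p of 0.772. A sum over the gene in whole gland does not measure the deleted part in adipocytes alone. Knockout replicate 1 stood apart, with the lowest casein share (43.3%), the highest TMM factor (1.22) and by far the highest sum of skeletal muscle markers (2179 CPM). Without it the 6 genes kept estimates below 0 after TMM scaling, from -0.31 for B4galt1 to -0.08 for Slc35a2, and the casein median was -0.19 in place of -0.27. Epithelial markers were present in every library: the 7 listed for luminal cells, such as Krt8 and Krt18, summed to 633 to 977 CPM among Knockout and 464 to 888 CPM among Wild-Type libraries.

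Levels are compared between genes in TPM, which divides by transcript length. Lalba was the 7th most abundant gene in the gland, at a mean of 19811 TPM ± 2257 (SD, n = 6) for Knockout against 18656 ± 2246 (SD, n = 5) for Wild-Type libraries. Its catalytic partner B4galt1 ranked 362nd, at 87.8 TPM ± 19.4 (SD, n = 6) and 94.9 ± 11.5 (SD, n = 5). The transcript of the regulatory part of lactose synthase thus outnumbered that of the catalytic part by 237-fold ± 65.4 (SD, n = 6) for Knockout against 200-fold ± 45.1 (SD, n = 5) for Wild-Type libraries. Library by library the ratio ran from 163 to 326 in Knockout and from 167 to 279 in Wild-Type. Of the Knockout libraries 2 lay above the highest Wild-Type library and 1 below the lowest, with the rest between. Lalba stood at 0.145 and 0.132 of the level of the beta-casein transcript Csn2 in the Knockout and Wild-Type means.

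The 4 supply genes stood below both. Over all 11 libraries Ugp2 ranged from 23.9 to 37.5 TPM and Slc2a1 from 20.9 to 31.1 TPM. These neighbours in the order overlapped. Slc35a2 ranged from 5.47 to 9.31 TPM and Galt, the least abundant, from 3.33 to 4.79 TPM. Apart from Ugp2 and Slc2a1, no neighbours in the order Lalba, B4galt1, Ugp2, Slc2a1, Slc35a2, Galt shared any part of their range. Per length, Ugp2 exceeded Galt by 7.35-fold in Knockout and 7.13-fold in Wild-Type on average.

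**Figure D1:**
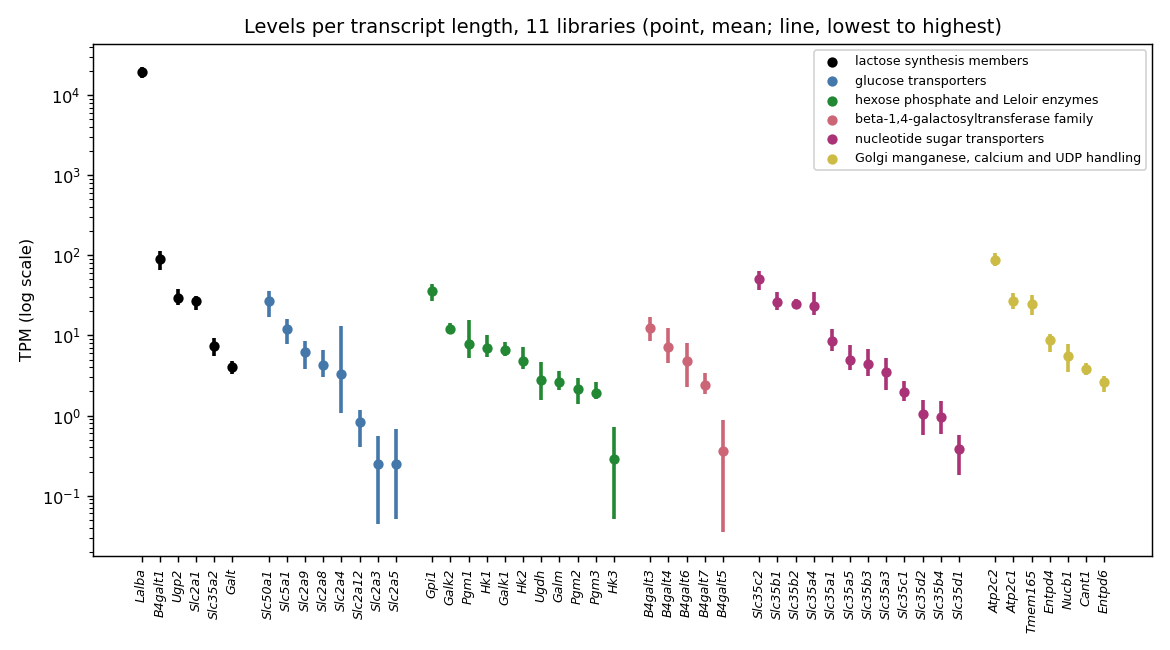
Level per transcript length (TPM, log axis) of the 6 lactose synthesis genes and of tested genes of 5 related lists. Points are means over 11 libraries and lines run from the lowest to the highest library. Lalba lies far above every other gene shown, and B4galt1 above the rest of its family.

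Each gene was read mainly from 1 transcript model. Lalba (chr15:98480400-98482721, minus strand) has 1 model, with 4 exons, and B4galt1-201, with 6 exons, made up 99.9% of the B4galt1 signal (chr4:40804602-40854005, minus strand) in both groups. Slc2a1-201, with 10 exons, held 99.9% and 100% of Slc2a1 (chr4:119108711-119137983, plus strand). All Ugp2 signal (chr11:21321138-21371201, minus strand) was assigned to Ugp2-202, while Ugp2-201 was listed at 0 in every library. Galt (chr4:41755228-41758695, plus strand) was divided between Galt-201, at 92.3% ± 5.14 (SD, n = 6) for Knockout against 92.1% ± 3.54 (SD, n = 5) for Wild-Type, and Galt-202. For Slc35a2 (chrX:7884028-7894492, plus strand), Slc35a2-202 held 91.9% and 89.7%. The tables list mostly coding sequences, so transcripts that differ outside the coding sequence could not be told apart. On the opposite strand Slc2a1 overlaps 2 annotated genes, and Ugp2 and Galt 1 each. Whether the counting used strand is not given in the sources used here, so reads there could belong to either gene. On the same strand Galt overlaps the protein-coding gene Il11ra1, and B4galt1, Slc2a1 and Ugp2 overlap microRNA genes. Cut into short overlapping words, their coding sequences shared none with a gene that overlaps them on the same strand.

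None of the 6 genes passed the test between genotypes, and the Knockout and Wild-Type libraries overlapped for each of them. By edgeR's quasi-likelihood test, with Benjamini-Hochberg adjustment over 12716 genes, 0.055% of all genes tested had an adjusted p under 0.05, 0.0472% higher and 0.00786% lower in Knockout. Galt alone had an unadjusted p under 0.05, where 12.4% of all genes did. DESeq2 called 0 of the 6 and 1.09% of all genes, with 0 of the 6 and 10.7% of all genes at an unadjusted p under 0.05. With limma-voom 0 of the 6 and 0.0472% of all genes were called, and 2 of the 6 (Galt and Slc2a1) and 11.2% of all genes had an unadjusted p under 0.05. All 6 estimates lay below 0 after TMM scaling, between -0.35 and -0.11 on the log2 scale with a median of -0.17, against a median of -0.01 over all genes tested, although 3 of the 6 lay above 0 with library totals alone and 5 relative to caseins. In bulk tissue, fewer cells of a type and less RNA per cell cannot be told apart.

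Lalba had 6695, 7273 and 8000 CPM as the lowest, median and highest Knockout library. The 5 Wild-Type libraries, here and below in order of replicate number, had 7535, 8302, 9098, 7885 and 7455 CPM. Of the 6 Knockout libraries 4 lay below the lowest Wild-Type library, and 2 Wild-Type libraries lay above the highest Knockout one, with the rest interleaved. The lowest was Knockout replicate 1, and the estimate given next was -0.11 without it. The means were 7297 CPM ± 437 (SD, n = 6) and 8055 ± 672 (SD, n = 5). The log2 fold change was -0.14 ± 0.08 (SE), or -9.42% with a 95% interval from -20.0% to 2.61%, and the edgeR adjusted p was 0.505. With 198768 to 301500 reads per library, counting error was small for Lalba. As a share of all reads, without TMM scaling, Lalba took 0.776% ± 0.0701 (SD, n = 6) for Knockout against 0.750% ± 0.0749 (SD, n = 5) for Wild-Type, the opposite order.

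B4galt1 had 152, 180 and 273 CPM as the lowest, median and highest Knockout library, and 257, 269, 333, 178 and 252 CPM in the Wild-Type libraries. The Knockout libraries fell into 4 between 152 and 180 CPM and 2, replicates 4 and 5, at 268 and 273 CPM. Among Wild-Type libraries replicate 4 lay at the low level and the other 4 at 252 CPM or above. B4galt1 was the most variable of the 6, with a coefficient of variation of 26.6% in Knockout and 21.4% in Wild-Type, against 5.99% and 8.34% for Lalba. Its log2 fold change of -0.35 ± 0.19 (SE) was the lowest of the 6 estimates. The interval ran from -40.9% to 4.42% and the edgeR adjusted p was 0.480.

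**Figure D2:**
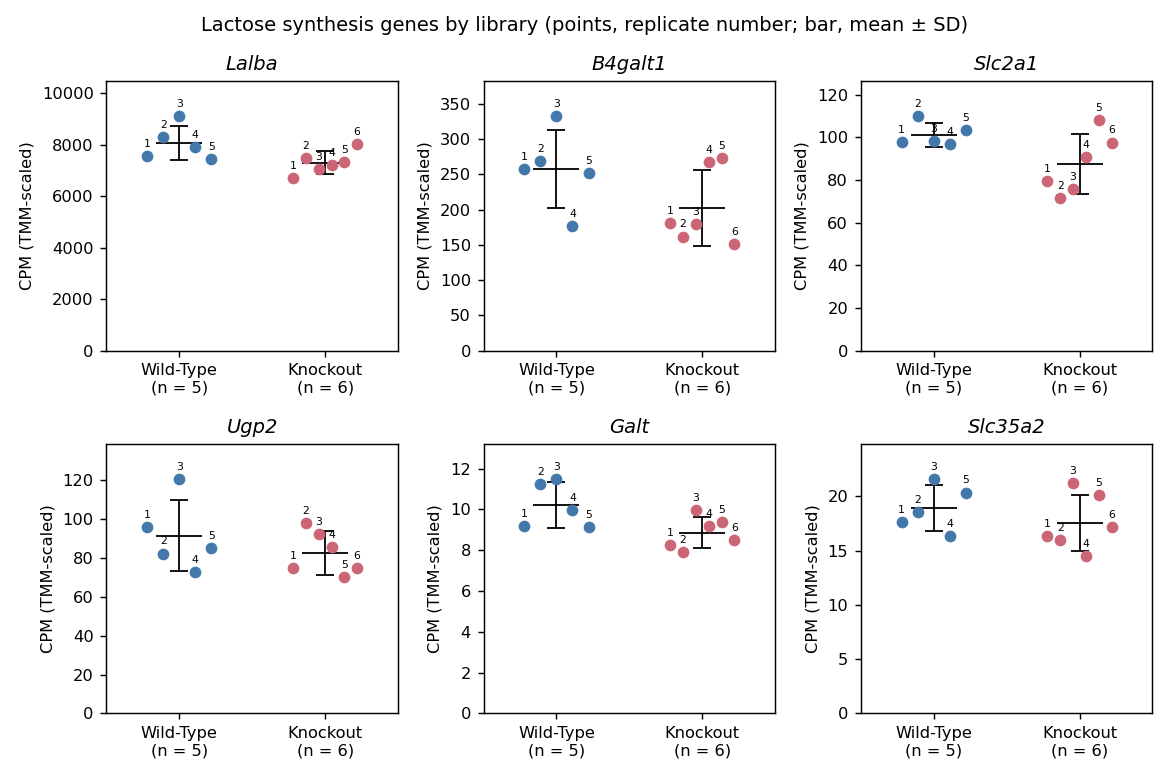
TMM-scaled CPM of each lactose synthesis gene by library, with replicate numbers, and the mean ± SD of each group as black bars; each axis starts at 0. The groups overlap in all 6 panels, and B4galt1 in Knockout libraries is divided between 4 libraries at 152 to 180 CPM and 2 at 268 and 273 CPM.

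For the glucose transporter gene Slc2a1, the lowest, median and highest Knockout library had 71.7, 85.3 and 108 CPM. The Wild-Type libraries had 97.7, 110, 98.0, 96.7 and 103 CPM. Of the Knockout libraries 4 lay below all Wild-Type libraries, while replicates 5 and 6 lay among them. The spread was wider in Knockout, with a coefficient of variation of 16.1% against 5.48%, a difference that was not tested. The log2 fold change was -0.21 ± 0.10 (SE), with an interval from -26.2% to 0.914% and an edgeR adjusted p of 0.431.

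Ugp2, which makes UDP-glucose, had 70.0, 80.3 and 98.2 CPM as the lowest, median and highest Knockout library and 95.9, 82.2, 121, 72.8 and 85.3 CPM in the Wild-Type libraries. Wild-Type replicate 3 stood above all others, and the remaining libraries of both groups were interleaved. The log2 fold change was -0.15 ± 0.13 (SE), with an edgeR adjusted p of 0.678, and was -0.03 without Wild-Type replicate 3.

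Galt, the Leloir pathway enzyme, had 7.91, 8.85 and 9.98 CPM as the lowest, median and highest Knockout library and 9.18, 11.2, 11.5, 9.99 and 9.13 CPM in the Wild-Type libraries. All 6 Knockout libraries lay below the Wild-Type median, yet 3 lay above the lowest Wild-Type library. The log2 fold change was -0.20 ± 0.09 (SE), and its interval, -24.4% to -0.139%, ended just below 0. The unadjusted p was 0.0481 and the edgeR adjusted p was 0.401. Galt rests on 232 to 371 reads per library, and 18.8% of its coding sequence, counted in short overlapping words, also occurs in 1 annotated pseudogene, so reads there could belong to either.

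Slc35a2, the Golgi transporter of UDP-galactose, had 14.5, 16.8 and 21.2 CPM as the lowest, median and highest Knockout library and 17.6, 18.6, 21.6, 16.4 and 20.4 CPM in the Wild-Type libraries. Knockout replicates 3 and 5 stood among the highest Wild-Type libraries. After TMM scaling, its log2 fold change of -0.11 ± 0.11 (SE) was the closest to 0 of the 6 over all libraries. Relative to caseins, at 0.16, it was the farthest from 0. The TMM-scaled estimate was -0.05 without Wild-Type replicate 3, where Ugp2 was closer to 0, -0.06 without Knockout replicate 4 and -0.17 without Knockout replicate 3. The interval ran from -21.3% to 9.49% and the edgeR adjusted p was 0.722.

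The direction of these small differences changed with the scaling. TMM factors averaged 1.07 ± 0.0974 (SD, n = 6) for Knockout against 0.934 ± 0.0953 (SD, n = 5) for Wild-Type libraries. With library totals alone, the median over all genes tested was 0.18, and 3 of the 6 estimates (Lalba, Ugp2 and Slc35a2) lay above 0. With the summed caseins as the reference the median over all genes was 0.26, and B4galt1 alone stayed below 0, at -0.08. In each of these scalings all 6 estimates lay below the median of all genes, and none of the 6 passed the test. A change of scaling moves all genes together, so the place below that median is not a separate result for each scaling. In TPM, which applies no such scaling, the Knockout means of all but B4galt1 were the higher ones.

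**Figure D3:**
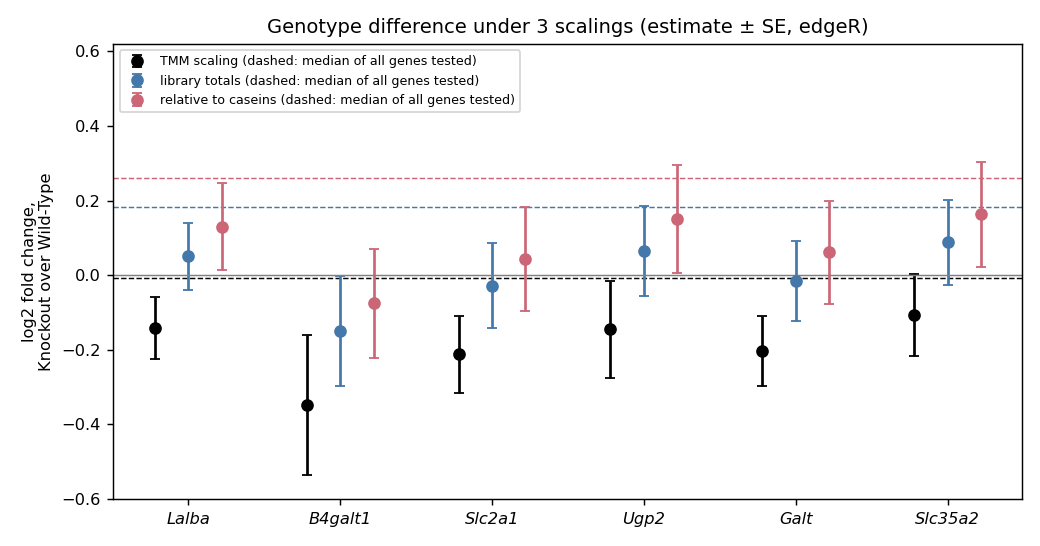
Log2 fold change (Knockout over Wild-Type, estimate ± SE, edgeR) of each lactose synthesis gene under 3 scalings, with the median of all 12716 genes under the same scaling as a dashed line. All estimates lie below their dashed line, which a change of scaling moves together with them. Their sign against 0 differs between scalings for all but B4galt1.

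No pair of the 6 genes passed a test of correlation across the 11 libraries. Of the 15 pairs, 14 had a positive Pearson r of log2 CPM. The highest was Lalba with Galt, at r = 0.67 (permutation p = 0.0230, adjusted over the 15 pairs 0.257) and Spearman rho = 0.45 (permutation p = 0.173, adjusted 0.324). Without the 2 libraries farthest from the Lalba median this r was 0.31, and after centring within genotype it was 0.47. The lowest was Slc2a1 with Ugp2, at r = -0.25 (permutation p = 0.467, adjusted 0.467) and rho = -0.26 (permutation p = 0.434, adjusted 0.720), and at 0.04 without the 2 libraries farthest from the Slc2a1 median. Lalba and B4galt1, the parts of 1 enzyme, had r = 0.40 (permutation p = 0.233, adjusted 0.378) and rho = 0.15 (permutation p = 0.674, adjusted 0.778), and r = -0.12 without the 2 libraries farthest from the Lalba median. All values share the library's scaling factor: on unscaled read shares 9 of the 15 pairs were positive, Lalba with B4galt1 was at -0.45, and Slc2a1 with Ugp2 at -0.76.

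The genes whose log2 CPM followed each member most closely over the 11 libraries are given as a description. For Lalba they were Tmprss13, Mtfr1, Stx1a, Pnpla6 and Wdyhv1, with r from 0.88 to 0.94. For B4galt1 they were Fads1, a fatty acid desaturase, Atp2b2, a calcium pump that moves calcium towards milk, and Ppme1, with r of 0.97, 0.96 and 0.96. The caseins stood nearer to B4galt1 (r from 0.76 to 0.85) than to Lalba (0.48 to 0.68), a difference that was not tested. With Galt their r ran from 0.58 to 0.79, and all these values share the library's scaling factor. For Slc2a1 the closest genes were Hars2 (0.93), Fasn, the fatty acid synthase (0.89), and Gstm7 (0.88). For Ugp2 they were Pla2g6, Mdfic and Znrf2 (0.88 to 0.89), for Galt Sh2d4a, Zfp592 and Ciz1 (0.90 to 0.92), and for Slc35a2 P4hb, Rec114 and Gpatch11 (0.87 to 0.88).

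Genes around the members in the route gave 0 calls in any of these 7 lists, caseins included, by the adjusted p of edgeR, DESeq2 or limma-voom. Among 12 listed glucose transporters other than Slc2a1, 8 were tested, with 1 lower and 0 higher at an unadjusted p under 0.05 and a median log2 fold change of -0.13. Slc2a1 made up 33.5% of the summed TPM of these 12 and itself in Knockout and 32.5% in Wild-Type. The lowest p was that of Slc50a1, a sugar transporter of the Golgi and the most abundant of the 12 at 26.8 TPM. Its values were 22.8 CPM ± 7.34 (SD, n = 6) for Knockout against 32.8 ± 7.96 (SD, n = 5) for Wild-Type, with a log2 fold change of -0.53 ± 0.22 (SE) and an edgeR adjusted p of 0.378. The estimate was -0.33 with library totals and -0.26 relative to caseins. The sodium-coupled transporter gene Slc5a1 followed at 12.1 TPM, with a log2 fold change of 0.02.

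Of 13 listed enzymes of hexose phosphates and the Leloir pathway, 12 were tested, with 1 higher and 2 lower at an unadjusted p under 0.05 and a median of -0.08. Pgm3, which acts in the synthesis of UDP-N-acetylglucosamine, had 6.14 CPM ± 0.536 (SD, n = 6) for Knockout against 8.39 ± 2.19 (SD, n = 5) for Wild-Type. The estimate was -0.45 ± 0.15 (SE), with an edgeR adjusted p of 0.310, and was -0.24 with library totals and -0.16 relative to caseins. The most abundant of the list was Gpi1, glucose-6-phosphate isomerase, at 35.4 TPM, with a log2 fold change of -0.08 ± 0.07 (SE). The others with an unadjusted p under 0.05, named after their values were seen, were Ugdh and Galk1. Ugdh, which turns UDP-glucose to UDP-glucuronate, had a median of 10.1 CPM over the Knockout and 8.19 CPM over the Wild-Type libraries. Its estimate was 0.36 ± 0.12 (SE), with an edgeR adjusted p of 0.311, and was 0.56 with library totals and 0.63 relative to caseins. For Galk1, galactokinase, all Knockout libraries (15.5 to 16.9 CPM) lay below all Wild-Type libraries (17.3 to 20.3 CPM), an arrangement that 1.32% of all genes tested showed in either direction. Its estimate was -0.17 ± 0.06 (SE, edgeR adjusted p 0.328), and 0.02 with library totals.

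B4galt1 took most of the signal of its family, at 74.2% ± 7.81 (SD, n = 6) of the summed TPM of the 7 beta-1,4-galactosyltransferase genes for Knockout against 78.7% ± 6.11 (SD, n = 5) for Wild-Type. Of its 6 relatives 5 were tested and 0 had an unadjusted p under 0.05 by edgeR, with a median of -0.004. DESeq2 gave 1, B4galt6, which makes lactosylceramide and whose edgeR estimate was 0.48 ± 0.23 (SE, adjusted p 0.429). For B4galt6 library totals gave 0.67 and caseins as the reference 0.75. B4galt3 and B4galt4 were the most abundant relatives, at 12.5 and 7.25 TPM.

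Of 13 listed nucleotide sugar transporters other than Slc35a2, 12 were tested, with 1 lower and 0 higher at an unadjusted p under 0.05 and a median of 0.002. Slc35a2 made up 4.58% of their summed TPM in Knockout and 4.80% in Wild-Type, its own included. The lowest p was that of Slc35b2, which carries the sulfate donor PAPS, with a log2 fold change of -0.23 ± 0.08 (SE) and an edgeR adjusted p of 0.316. It stood at -0.04 with library totals and 0.04 relative to caseins. Slc35c2 and Slc35b1 were the most abundant, at 51.2 and 26.2 TPM.

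Lactose synthase needs manganese, and its by-product UDP is broken down in the Golgi. All 7 listed genes for these tasks were tested, with 1 lower and 0 higher at an unadjusted p under 0.05 and a median of -0.12. That gene was Cant1, a nucleotidase that acts on UDP, with a log2 fold change of -0.19 ± 0.08 (SE) and an edgeR adjusted p of 0.360. Its value was -0.002 with library totals and 0.07 relative to caseins. Atp2c2, a Golgi pump for calcium and manganese, stood at 88.1 TPM, near the level of B4galt1, and its relative Atp2c1 at 26.8 TPM.

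Of 8 regulators of lactogenic gene expression, 1 was higher and 0 lower at an unadjusted p under 0.05, with a median of 0.14. It was Stat5a, the transcription factor of prolactin signalling, at 135 CPM ± 34.7 (SD, n = 6) for Knockout against 99.97 ± 21.1 (SD, n = 5) for Wild-Type. Its log2 fold change was 0.43 ± 0.19 (SE), with an edgeR adjusted p of 0.379, and was 0.59 with library totals and 0.65 relative to caseins. Stat5a and the kinase gene Akt1 were the most abundant of this list over all libraries, at 63.8 and 55.3 TPM. By group Stat5a stood at 82.9 TPM in Knockout and 40.8 TPM in Wild-Type, a wider gap than in CPM. In Wild-Type the means of Akt1 (50.8 TPM) and Elf5 (45.8 TPM) were higher than that of Stat5a. The 5 caseins, the reference milk proteins, all had estimates below 0, from -0.31 for Csn1s2a to -0.22 for Csn3, and also with library totals. None of the 5 had an unadjusted p under 0.05 by edgeR, whereas Csn1s1, Csn1s2a and Csn2 did by DESeq2. As for the members, the sign of list medians moved with the scaling: with library totals every list median named here except that of the caseins lay above 0. The counts at an unadjusted p under 0.05 turned as well, while such genes made up 19.3% of all genes with library totals and 21.7% relative to caseins. With library totals no gene of these lists was lower at that p. Higher were 4 of the nucleotide sugar transporters, 2 of the hexose phosphate and Leloir enzymes, 1 of the B4galt1 relatives, 4 of the regulators, and 0 of the glucose transporters and of the Golgi list. Relative to caseins these counts were equal apart from 5 regulators, and again none was lower.

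**Figure D4:**
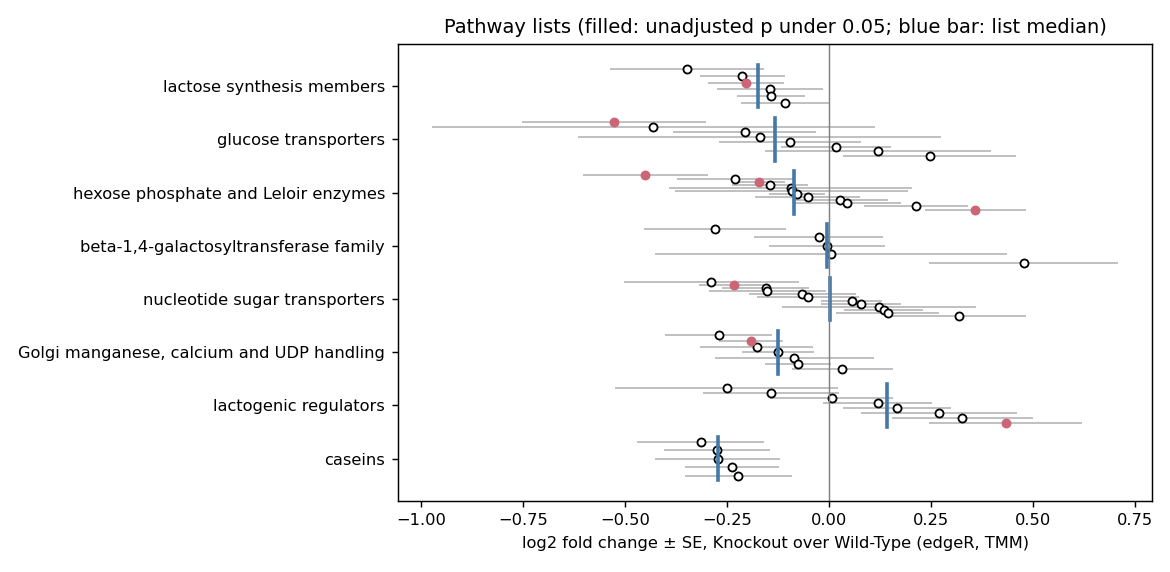
Log2 fold change (Knockout over Wild-Type, ± SE, TMM scaling) of each tested gene of 8 lists, with filled points at an unadjusted p under 0.05 and list medians as blue bars. All 6 lactose synthesis genes and all 5 caseins lie below 0 under this scaling, 3 of the 6 lie above 0 with library totals, no gene shown passed the adjusted threshold, and the regulators have a median of 0.14.

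The levels of listed markers of other cell types stood beside these values as follows. Adipocyte markers summed to 1175 to 1648 CPM among Knockout and 848 to 1260 CPM among Wild-Type libraries, with 5 of 7 estimates above 0 and 3 at an unadjusted p under 0.05. All 7 luminal and all 6 myoepithelial markers had estimates above 0, with 2 at an unadjusted p under 0.05 in each list. At that p, 4 luminal and 6 myoepithelial markers were higher with library totals, and equally many relative to caseins, while the adipocyte count stayed at 3. B cell markers summed to 0.808 to 13.8 CPM among Knockout and 1.93 to 69.8 CPM among Wild-Type libraries, with 4 of the 4 tested below 0 and all 4 at an unadjusted p under 0.05, at a median log2 fold change of -2.77. With library totals 3 of these 4 were at that p, and 2 relative to caseins. DESeq2 gave 4 of these 4 at that p, and limma-voom 0. The skeletal muscle sum was 2179 CPM in Knockout replicate 1, 1.08 to 185 CPM in the other Knockout libraries and 0.754 to 190 CPM in Wild-Type ones. All 6 muscle estimates lay above 0, at a median of 2.24, which was -0.03 without Knockout replicate 1. The myoepithelial sum ranged from 455 to 634 CPM among Knockout and 364 to 658 CPM among Wild-Type libraries, the T cell sum from 1.09 to 6.42 and 0.876 to 21.8 CPM (5 of 5 estimates below 0, 1 at an unadjusted p under 0.05), the erythroid sum from 159 to 403 and 260 to 351 CPM, and the endothelial sum from 67.0 to 105 and 67.9 to 105 CPM. For the T cell markers, DESeq2 gave 3 at an unadjusted p under 0.05 and limma-voom 0. No marker of these lists was at 0 in every library, and none passed edgeR's adjusted threshold, whereas DESeq2, which called 1.09% of all genes, called the adipocyte markers Cfd (adjusted p 0.00496) and Adipoq (adjusted p 0.04998). The part of any of these in the members' values was not tested.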

How the data were processed

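RNA of whole mammary gland was made into strand-specific libraries, per the labels' protocols. The submitters' processing notes name Salmon 1.3.0, DESeq2 1.28.1 and GRCm38.p6. The deposited tables give, per the file headers, estimated counts and TPM for 58204 transcripts. The authors also deposited a gene table, named as DESeq2-normalized, whose signal served as an alternative on the log2(value + 1) scale. Estimated counts were summed per gene by GENCODE M21 identifiers and rounded. The 752 transcripts without a match held at most 0.265% of reads. Of the version-matched coding transcripts, 94.3% had a listed length within 3 bases above their coding length. The main test was edgeR 4.0.16 (filterByExpr, TMM, robust quasi-likelihood, genotype as the only term), with DESeq2 1.42.0 and limma 3.58.1 as alternatives, all in R 4.3.3. The filter kept at least 99.93% of reads, and the common biological coefficient of variation was 24.1%. Correlations used 100000 permutations, log2 CPM with a prior count of 2, and scipy 1.17.1.

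The members and lists were chosen with earlier results of these data known. Named besides the members were, in each list, the gene with the lowest p, the top 2 by TPM, any past the threshold, and per member the 3 genes (Lalba 5) of highest Pearson r, with predicted gene names passed over. One gene that this rule names is not reported here. B4galt6, Ugdh and Galk1 were picked after their values were seen. Promoters were from RefSeq, matched by symbol for all 6 members. TPM keeps no depth, and reads without molecular identifiers are not independent molecules. No 2 libraries of the same genotype agreed within counting noise.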

Additional observations from a re-analysis of the deposited data

How the results depend on the processing

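None of the 6 genes passed an adjusted p of 0.05 under any alternative. The lowest adjusted p over these was 0.275, without Wild-Type replicate 4. With library totals alone the estimates reversed for Lalba (0.050), Ugp2 (0.065) and Slc35a2 (0.088). Relative to caseins they reversed for Lalba (0.13), Slc2a1 (0.043), Ugp2 (0.15), Galt (0.061) and Slc35a2 (0.16). Both scalings by construction move all genes together. All other alternatives kept the 6 estimates below 0. Leaving out 1 library at a time gave -0.17 to -0.10 for Lalba, -0.45 to -0.24 for B4galt1, -0.28 to -0.16 for Slc2a1, -0.21 to -0.03 for Ugp2, -0.24 to -0.16 for Galt and -0.17 to -0.05 for Slc35a2. Over all genes edgeR called 7 (6 higher, 1 lower), DESeq2 called 146 (87 higher, 59 lower), DESeq2 with transcript length factors 137, and edgeR relative to caseins 11; the cause was not tested. Leaving out 1 library gave 0 to 28 calls: 28 without Knockout replicate 2, 0 without Knockout replicate 3 or 6, 2 without Knockout replicate 1 or Wild-Type replicate 3, and 13 to 14 without Wild-Type replicate 1, 4 or 5. The deviations of same-numbered libraries correlated at -0.02, -0.10, 0.19, -0.22 and -0.21. They were not compared with those of differently numbered libraries, so whether replicate numbers pair the libraries was not tested. With the replicate block over libraries 1 to 5, edgeR called 0 genes (1023 at an unadjusted p under 0.05), and 0 over the same libraries without the block (1319), a fit chosen after seeing the data. The block gave -0.16 for Lalba, -0.28 for B4galt1, -0.25 for Slc2a1, -0.10 for Ugp2, -0.18 for Galt and -0.10 for Slc35a2, with adjusted p from 0.619 to 0.851. Depth limits Galt most, at 232 reads in its lowest library.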
